A study of Homo sapiens with 12 samples.

Results

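Both strands of 5 microRNA (miRNA) hairpins, miR-331, miR-423, miR-455, miR-28 and miR-361, were followed in human colon carcinoma cells that carry wild-type or mutant DICER. They were selected on a measured value, the ratio of 5p to 3p counts in cells with the R821E mutant against cells with wild-type DICER, which was higher in R821E for each of them. The 10 strands are 10 of 1346 miRNA entries counted, and the 5 hairpins are 5 of 69 with a mean of at least 20 counts on both arms. For these hairpins the difference between R821E and wild type is therefore given as a description with no test, and tests are given among the 4 groups of libraries that the choice did not use.

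The 12 libraries came from HCT116, a human colorectal carcinoma line, and were named by the DICER with which the cells were rescued: R821E, R821A, E5, A5, ΔPAZ helix or wild type (WT), 2 libraries each. In the usual notation R821E puts glutamate and R821A puts alanine in place of an arginine, and the name ΔPAZ helix speaks of a deleted PAZ helix. The sources used here do not give the changes behind E5 and A5, how the cells were rescued, how much DICER each line makes, or whether a line is 1 clone. All groups share the HCT116 background, and WT is itself a rescue and not the parental line. Small RNA was sequenced by AQ-seq, a protocol built to reduce the bias of adapter ligation.

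DICER cuts a precursor hairpin near its loop and leaves a duplex whose strands are named 5p and 3p after the arm they come from. The cut by DROSHA sets the 5′ end of the 5p strand, whereas the cut by DICER sets the 5′ end of the 3p strand, and with it the seed that selects the targets of that strand. One strand of the duplex is then kept by an Argonaute protein and the other is mostly degraded. Argonaute tends to keep the strand whose 5′ end is more loosely paired and begins with U or A, so the 5p to 3p ratio of a hairpin reports which strand accumulates. The tables give counts per named strand and hold no positions of read ends.

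The strands are shown because each hairpin yields 2 regulators with unlike seeds. The sequences are from RefSeq (GRCh38.p14), printed 5′ to 3′ with the seed, bases 2 to 8, in capitals. The table matched 9 of the 10 strands, all but hsa-miR-28-5p.
hsa-miR-331-5p: cUAGGUAUggucccagggaucc
hsa-miR-331-3p: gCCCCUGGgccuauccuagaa
hsa-miR-423-5p: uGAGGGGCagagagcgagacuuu
hsa-miR-423-3p: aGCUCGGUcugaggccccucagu
hsa-miR-455-5p: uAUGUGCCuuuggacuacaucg
hsa-miR-455-3p: gCAGUCCAugggcauauacac
hsa-miR-28-3p: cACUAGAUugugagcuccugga
hsa-miR-361-5p: uUAUCAGAaucuccagggguac
hsa-miR-361-3p: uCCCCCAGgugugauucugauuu

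No 2 of these 9 strands share a seed. In the reference table the seed of hsa-miR-423-5p is shared with hsa-miR-3184-5p, which arises from the opposite DNA strand of the same locus, and the other 8 seeds belong to no further entry. The miR-3184 strands were not analysed here, and since the files do not say whether counting used the strand, the 2 strands of hairpin DNA at this locus cannot be told apart.

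The hairpins differ in how far the 2 strands lie apart. Those of miR-423, miR-455 and miR-361 are printed with both mature strands in capitals and the loop and flanks in lower case. The lower-case stretch between the 2 strands is the part that DICER removes.
miR-423: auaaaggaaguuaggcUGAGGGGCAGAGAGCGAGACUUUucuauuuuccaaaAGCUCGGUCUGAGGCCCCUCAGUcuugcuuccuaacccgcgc
miR-455: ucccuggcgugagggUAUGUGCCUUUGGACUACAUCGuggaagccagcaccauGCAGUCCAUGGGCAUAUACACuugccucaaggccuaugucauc
miR-361: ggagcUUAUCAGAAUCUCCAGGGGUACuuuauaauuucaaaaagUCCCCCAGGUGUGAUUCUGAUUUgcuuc

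Between the strands lie 13 bases in miR-331 and miR-423, 16 in miR-455 and 17 in miR-361. The 53 other hairpins of the fit with both strands in the reference table had 12 to 35 bases there, with a median of 17. From the start of the 5p to the end of the 3p strand the members measured 56 bases (miR-331), 59 (miR-423 and miR-455) and 62 (miR-361), against 56 to 78 with a median of 61 in the others. The 5p strand began with U or A in 3 of 4 members (75.0%) and in 38 of 53 others (71.7%), and the 3p strand with G or C in 2 of 4 (50.0%) and 25 of 53 (47.2%), which are near to each other. Among the first 4 bases, the 3p strand held more G and C than the 5p strand in 3 of 4 members and as many in miR-423, while in the others it held more in 15, as many in 17 and fewer in 21. miR-28 is not among these 4, because a strand of it was not matched. With 4 hairpins these counts describe the set, and no test was made on them.

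The 5 hairpins lie in 5 loci (GRCh38, GENCODE v29). miR-331 lies at chr12:95308445-95308500 on the plus strand, in no other annotated gene. miR-423 lies at chr17:30117095-30117153 on the plus strand, where an annotated exon of NSRP1, a splicing regulator, overlaps it on the same strand. miR-455 lies at chr9:114209449-114209507 on the plus strand in an intron of the collagen gene COL27A1. The 3p strand of miR-28 lies at chr3:188688834-188688855 on the plus strand in an intron of LPP, which encodes a LIM-domain protein. miR-361 lies at chrX:85903641-85903702 on the minus strand in an intron of CHM, which encodes a Rab escort protein.

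Libraries held 144067 to 255296 miRNA counts, and 3 counts, a limit for counting error only, correspond to 11.8 to 20.8 CPM (counts scaled to equal miRNA totals, with no TMM factor unless stated). miRNA counts per spike-in count were 14.3 ± 1.38 in R821E (SD, n = 2) and 24.2 ± 2.49 in WT, with the other mutants between 17.1 and 19.6. Scaled to spike-ins, the median of all 374 tested entries thus stood at a log2 fold change of -1.39 in R821E against WT, compared with -0.10 with trimmed-mean (TMM) factors, so each level below is named by its scale. The epithelial markers miR-200b-3p, miR-200a-3p, miR-429, miR-192-5p and miR-194-5p were counted in all 12 libraries. Their medians were 1158, 700, 241, 132 and 109 CPM in that order. miR-200c-3p and miR-141-3p were also counted in all 12 but stayed at or below 59.9 CPM, and miR-215-5p was at 0 in 8 libraries. Of the markers of other cells, liver miR-122-5p, muscle miR-133a-3p, neuronal miR-124-3p and leukocyte miR-223-3p had at most 2 counts in a library. Neuronal miR-9-5p, leukocyte miR-142-3p and miR-142-5p, erythroid miR-451a, and miR-126-3p, miR-143-3p and miR-145-5p of endothelium and mesenchyme were counted in all 12 libraries, and erythroid miR-144-3p in all but 1. The medians of these markers of other cells were 673 CPM for miR-9-5p, 511 for miR-145-5p, 290 for miR-142-3p, 252 for miR-126-3p and 161 for miR-451a. Those of miR-142-5p, miR-143-3p and miR-144-3p were 32.2, 28.1 and 19.7 CPM. Some thus lay above the epithelial miR-192-5p and miR-194-5p. The part of these markers in the results was not tested. The labels do not state whether libraries with the same DICER were grown apart, and p-values therefore cover the spread between these libraries alone, which may be technical. The 2 WT libraries differed most. Their chi-square per degree of freedom, over all but the lowest miRNA entries, was 25.6, beside 3.8 (ΔPAZ helix) to 14.6 (E5) in the other pairs. Every shift against WT below rests on these WT libraries.

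**Figure D1:**
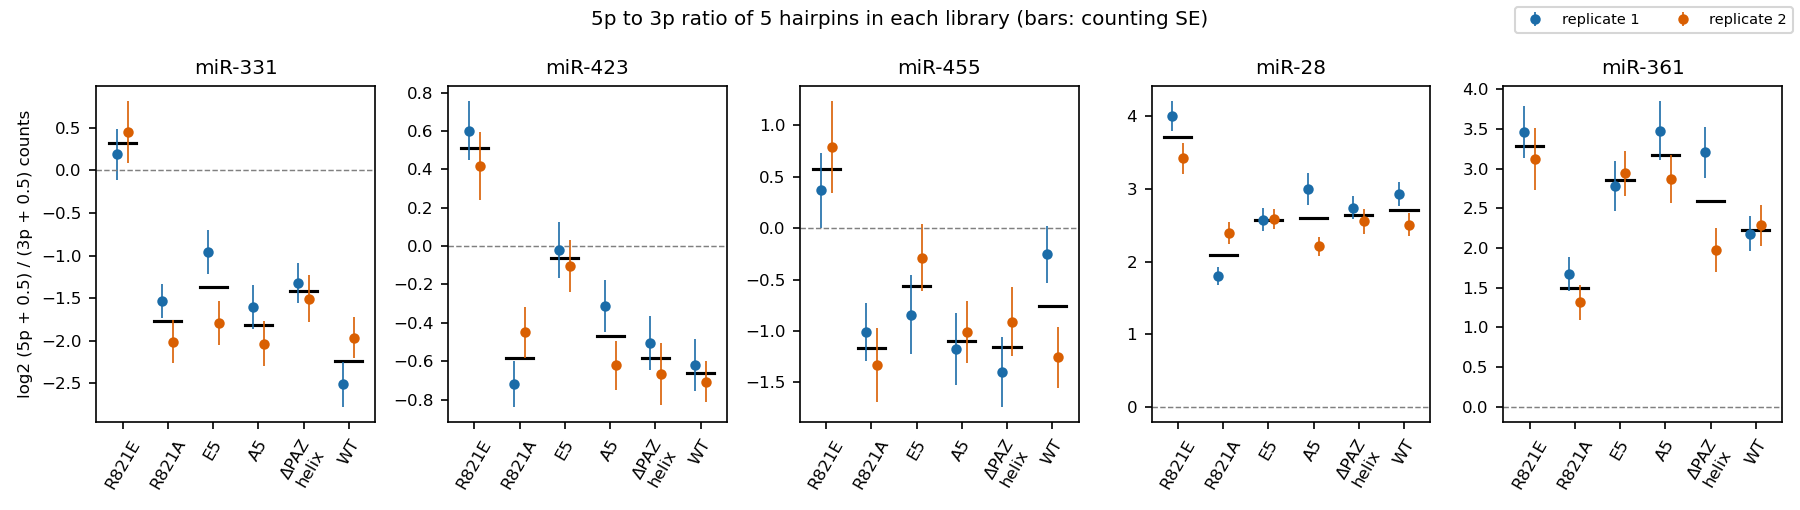
The log2 ratio of 5p to 3p counts (pseudocount 0.5 on each arm) of the 5 hairpins, 1 point per library, with the counting standard error as a bar and the mean of the 2 libraries as a black line. The R821E libraries lie above all 10 others for miR-331, miR-423, miR-455 and miR-28, as in 25 of all 69 hairpins (36.2%), and overlap A5 and ΔPAZ helix for miR-361.

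miR-331 had the largest R821E difference of the 5. Its 3p strand is known to repress ERBB2, a receptor kinase of epithelial tumours, while its 5p strand is usually the minor product. The 5p and 3p strands had 49 and 43 counts in R821E replicate 1 and 37 and 27 in replicate 2, against 34 and 196 in WT replicate 1 and 45 and 177 in replicate 2. The 3p strand was ahead in both WT libraries, and the 5p strand in both R821E libraries. The log2 5p/3p ratio was 0.19 and 0.45 in R821E, -1.53 and -2.01 in R821A, -0.96 and -1.79 for E5, -1.61 and -2.03 for A5, -1.32 and -1.51 for ΔPAZ helix, and -2.51 and -1.96 in WT. By group means R821E came first at 0.32 ± 0.185 (SD, n = 2), apart from all others, followed by E5, ΔPAZ helix, R821A, A5 and WT at -2.24 ± 0.386. In that order R821E and E5 did not overlap, nor did ΔPAZ helix and R821A, while the other neighbours overlapped. The shift of R821E against WT was 2.55 ± 0.374 (SE of the limma fit).

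miR-423, known for its 5p strand as a circulating marker of heart failure, was led by its 3p strand in every library outside R821E. Its 5p and 3p counts were 225 and 148 in R821E replicate 1 and 154 and 115 in replicate 2, against 188 and 289 in WT replicate 1 and 292 and 477 in replicate 2. The log2 ratio was 0.60 and 0.42 in R821E, -0.72 and -0.45 in R821A, -0.02 and -0.10 for E5, -0.31 and -0.62 for A5, -0.51 and -0.67 for ΔPAZ helix, and -0.62 and -0.71 in WT. R821E (mean 0.51 ± 0.129, SD, n = 2) stood apart from E5 (-0.06 ± 0.0575), and E5 from A5, whereas A5, R821A, ΔPAZ helix and WT (-0.66 ± 0.0623) overlapped in a row. The 2 WT libraries differed more in amount than in ratio. Both strands together came to 42.7 and 80.7 counts per 1000 spike-in counts in them, while their ratios differed by less than their counting standard errors of 0.14 and 0.11. The shift of R821E against WT was 1.17 ± 0.240 (SE).

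miR-455, whose strands act in cartilage formation, was the least abundant of the 5. Its 5p and 3p counts were 35 and 27 in R821E replicate 1 and 28 and 16 in replicate 2, against 51 and 61 in WT replicate 1 and 34 and 82 in replicate 2. The log2 ratio was 0.37 and 0.79 in R821E, -1.01 and -1.33 in R821A, -0.84 and -0.29 for E5, -1.18 and -1.01 for A5, -1.40 and -0.91 for ΔPAZ helix, and -0.26 and -1.26 in WT. R821E (0.58 ± 0.297, SD, n = 2) was clear of every other library, and the remaining groups, from E5 through WT, A5 and ΔPAZ helix to R821A, overlapped with their neighbours. The WT libraries differed by more than counting error, with an SD of 0.708 and counting standard errors of 0.27 and 0.29. The R821E shift of 1.34 ± 0.387 (SE) accordingly became 0.83 without WT replicate 2 and 1.84 without WT replicate 1.

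miR-28 is led by its 5p strand, and in colorectal cancer cells its 2 strands are known to have unlike effects on growth and migration. The 5p and 3p counts were 857 and 53 in R821E replicate 1 and 551 and 51 in replicate 2, against 649 and 85 in WT replicate 1 and 554 and 97 in replicate 2. The log2 ratio was 4.0 and 3.42 in R821E, 1.80 and 2.39 in R821A, 2.57 and 2.58 for E5, 3.0 and 2.21 for A5, 2.74 and 2.55 in ΔPAZ helix, and 2.93 and 2.51 in WT. R821E (3.71 ± 0.411, SD, n = 2) lay above all other libraries and R821A (2.09 ± 0.415) below both WT libraries. WT, ΔPAZ helix, A5 and E5 overlapped in that order, and R821A lay below E5 without overlap, though A5 replicate 2 lay within its range. The shift of R821E against WT was 1.00 ± 0.327 (SE), the smallest of the 5.

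miR-361, whose 5p strand represses the growth factor VEGFA, was also led by 5p in all 12 libraries. Its 5p and 3p counts were 225 and 20 in R821E replicate 1 and 134 and 15 in replicate 2, against 233 and 51 in WT replicate 1 and 182 and 37 in replicate 2. The log2 ratio was 3.46 and 3.12 in R821E, 1.67 and 1.31 in R821A, 2.78 and 2.94 for E5, 3.48 and 2.87 for A5, 3.21 and 1.97 for ΔPAZ helix, and 2.18 and 2.28 in WT. Here R821E (3.29 ± 0.242, SD, n = 2) did not stand alone: its libraries overlapped those of A5, A5 those of E5, E5 those of ΔPAZ helix and ΔPAZ helix those of WT (2.23 ± 0.0722). R821A (1.49 ± 0.252) lay below every other library. The shift of R821E against WT was 1.06 ± 0.410 (SE).

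The leading arm in R821E was not that of the other libraries for miR-331, miR-423 and miR-455. In these 3 the 5p strand had more counts in both R821E libraries and in none of the 10 others, and miR-28 and miR-361 were led by 5p throughout. Of the 64 other hairpins, 16 were led by 3p in all 10 libraries outside R821E, and 2 of the 64 were led by 5p in both R821E libraries and in none of the other 10. Over all 69 hairpins these counts were 19 and 5. The members were chosen for a higher ratio in R821E than in WT, which favours such a change of the leading arm. Nothing is therefore read from their count.

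**Figure D2:**
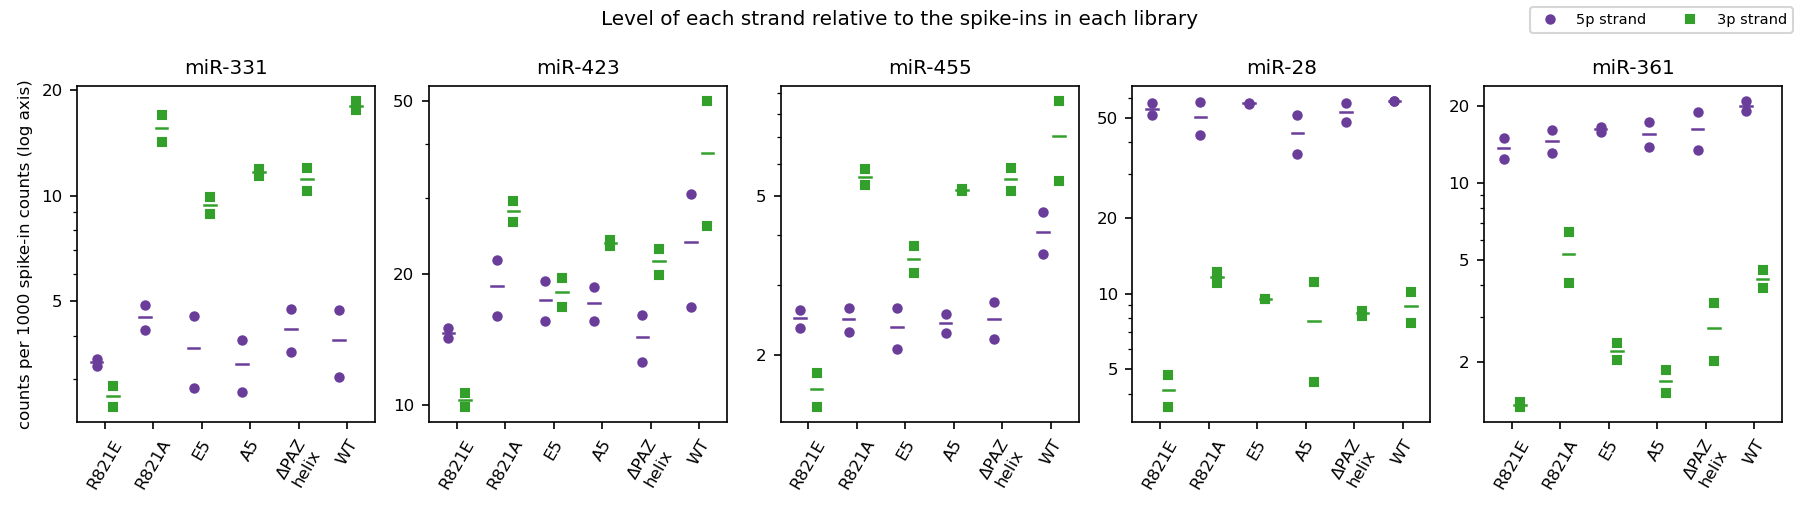
Counts per 1000 spike-in counts (log axis) of the 5p strand (circles) and 3p strand (squares) in each library, with the mean of the 2 libraries as a line. In R821E the 3p strands lie below both WT libraries for all 5 hairpins, as do 115 of all 148 tested 3p entries (77.7%), and the 5p strands lie nearer to the other groups.

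Relative to the spike-ins the 3p strands were far lower in R821E than in WT, and the 5p strands less so. hsa-miR-331-3p had 2.87 and 2.50 counts per 1000 spike-in counts in R821E, against 17.5 and 18.6 in WT, so that the R821E mean was 14.9% of the WT mean. hsa-miR-331-5p had 3.27 and 3.43 in R821E and 3.04 and 4.72 in WT, which overlap. The R821E mean was 27.1% of the WT mean for hsa-miR-423-3p and 61.8% for hsa-miR-423-5p. It was 23.4% for hsa-miR-455-3p and 60.7% for hsa-miR-455-5p. For miR-361 the values were 32.3% (3p) and 68.8% (5p). On this scale the median log2 fold change was -1.88 over all tested 3p entries and -1.12 over all tested 5p entries. The 3p strands of miR-423 (-1.88), miR-455 (-2.08) and miR-361 (-1.64) lay near the 3p median. hsa-miR-331-3p (-2.74) lay below it and hsa-miR-28-3p (-1.11) above it. The member 5p strands, from -0.73 to -0.10, all lay above the 5p median, which the choice of the hairpins favours.

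For miR-28 the leading strand lay close to its WT level on this scale. hsa-miR-28-5p had 57.3 and 51.1 counts per 1000 spike-in counts in R821E, against 58.0 and 58.1 in WT, or 93.3% of the WT mean, while hsa-miR-28-3p had 3.54 and 4.73 in R821E against 7.60 and 10.2 in WT, or 46.5%. The 3p strands of miR-331, miR-423, miR-455 and miR-361 were lower in both R821E libraries than in any of the 10 other libraries, and hsa-miR-28-3p overlapped A5 replicate 1. The same held for 90 of all 148 tested 3p entries (60.8%), against which the 4 of 5 members stand. No member 5p strand lay below all 10 others in both R821E libraries, which 78 of all 174 tested 5p entries (44.8%) did. Choosing hairpins by a higher 5p to 3p ratio in R821E favours lower 3p and higher 5p levels in those libraries. Nothing is therefore read from the member counts of either strand. For both strands together, R821E held 27.5% of the WT level in miR-331, 40.4% in miR-423, 37.1% in miR-455, 87.1% in miR-28 and 62.4% in miR-361. Fewer cells and less miRNA per cell cannot be told apart in these bulk libraries.

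Relative to the bulk of other miRNAs (TMM scale) the same data read as higher 5p strands. The log2 fold change of R821E against WT was 1.2 ± 0.161 for hsa-miR-28-5p (SE of the edgeR fit), 1.10 ± 0.319 for hsa-miR-331-5p, 0.76 ± 0.202 for hsa-miR-361-5p, 0.62 ± 0.239 for hsa-miR-423-5p and 0.56 ± 0.293 for hsa-miR-455-5p. On the spike-in scale these 5 values were -0.10, -0.20, -0.54, -0.69 and -0.73, so their sign flips with the scale. The 3p strands kept a negative value on both scales in 4 hairpins: -1.44 (TMM) and -2.74 (spike-in) for hsa-miR-331-3p, -0.77 and -2.08 for hsa-miR-455-3p, -0.57 and -1.88 for hsa-miR-423-3p, and -0.34 and -1.64 for hsa-miR-361-3p. For hsa-miR-28-3p the TMM value was 0.19 and the spike-in value -1.11. Several of these TMM values depended on 1 library. Without WT replicate 2, hsa-miR-423-3p had -0.13, hsa-miR-423-5p 1.00 and hsa-miR-455-5p 0.31. Without WT replicate 1, hsa-miR-423-3p had -0.93, hsa-miR-423-5p 0.29, hsa-miR-361-3p -0.16 and hsa-miR-28-3p 0.04. hsa-miR-28-3p was -0.04 without R821E replicate 2 and -0.35 with total counts in place of TMM. The medians of all 5p and all 3p entries were 0.17 and -0.58 by TMM, and -1.12 and -1.88 by spike-ins. The 5p to 3p ratio does not depend on the scale.

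**Figure D3:**
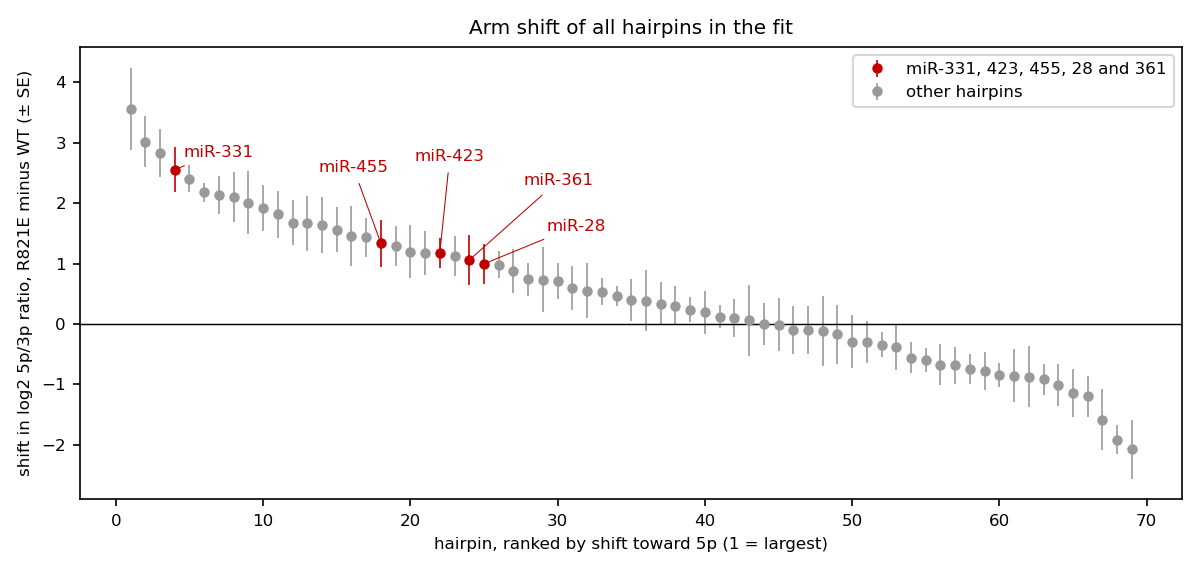
Shift in the log2 5p/3p ratio of R821E against WT (points, ± SE of the limma fit) for all 69 hairpins, ordered from the largest shift toward 5p. miR-331 is 4th, and miR-455, miR-423, miR-361 and miR-28 lie between the 18th and 25th place.

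Among the 69 hairpins, 28 (40.6%) shifted toward 5p in R821E against WT (limma, Benjamini-Hochberg adjusted p under 0.05), with shifts from 0.46 to 3.56. The 5 are among those 28 because they were chosen there, so nothing is read from their count. Their median shift was 1.17, beside 0.40 over all 69 and 0.32 over the 64 others. miR-331 ranked 4th, directly below miR-454 (2.83 ± 0.401), and miR-28 ranked 25th, directly above miR-15b (0.98 ± 0.226), so that members and others are not separated by a gap. Both R821E libraries lay above both WT libraries in 35 of the 69 hairpins (50.7%), the 5 members and 30 of the 64 others, and above all 10 other libraries in 4 of 5 members and 21 of 64 others. The choice used the R821E and WT libraries, so nothing is read from the members' counts.

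The profile of the 5 hairpins over the 12 libraries was compared with that of each other hairpin, each ratio being centred on its own mean. The closest were miR-203a, miR-590 and miR-29a, with root mean square differences from the mean member profile of 0.23, 0.24 and 0.26 log2 units, where the median of the 64 was 0.60. miR-203a had a mean log2 ratio of -0.50 in R821E and -1.79 in WT, miR-590 had 2.85 in R821E and 1.41 in WT, and miR-29a had 1.23 in R821E and -0.96 in WT. The members themselves lay 0.20 (miR-423) to 0.46 (miR-361) from their mean, and 19 of the 64 others were closer to it than miR-361. Each member is part of that mean, which draws it nearer, and the profile includes the R821E and WT libraries used in the choice. Distances of members and others are therefore not on equal terms.

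**Figure D4:**
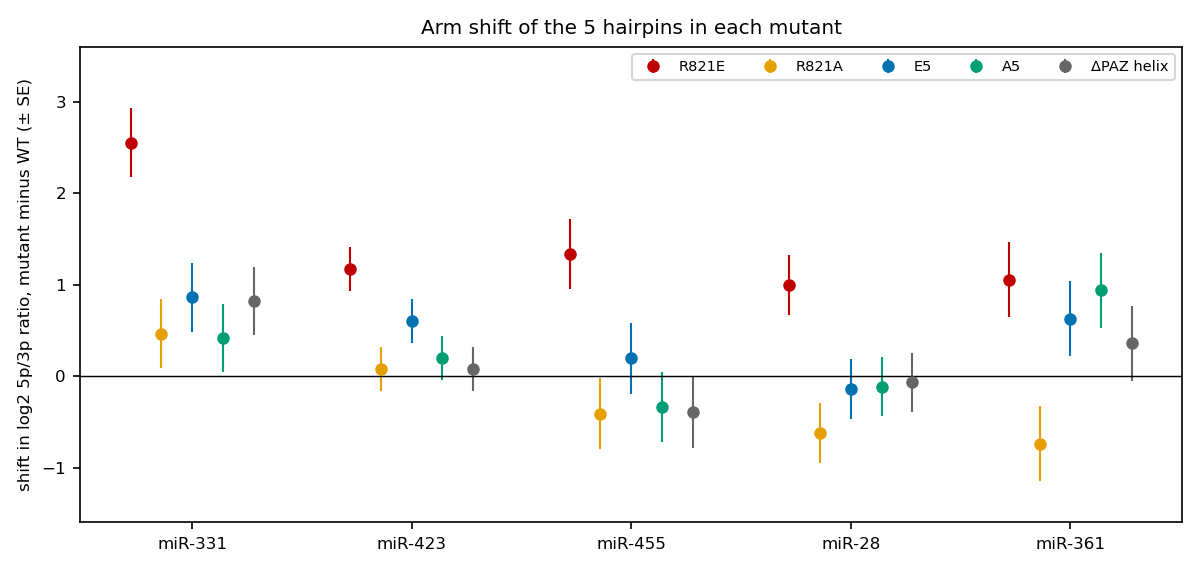
Shift in the log2 5p/3p ratio against WT for each hairpin in each mutant (points, ± SE of the limma fit), all sharing the same 2 WT libraries. R821E lies between 1.00 and 2.55, while R821A lies below 0 for miR-455, miR-28 and miR-361, for miR-455 not without WT replicate 1.

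The other mutants were set beside R821E to see which of these ratios differ with the kind of change to DICER. All comparisons with WT share the 2 WT libraries that served in the choice, so they are values side by side with no test. The shift in E5 was 0.86 ± 0.374 (SE) for miR-331, 0.63 ± 0.410 for miR-361, 0.60 ± 0.240 for miR-423, 0.19 ± 0.387 for miR-455 and -0.14 ± 0.327 for miR-28. In A5 it was 0.94 ± 0.410 for miR-361, 0.42 for miR-331, 0.20 for miR-423, -0.11 for miR-28 and -0.34 for miR-455. In ΔPAZ helix it was 0.82 ± 0.374 for miR-331 and between -0.40 and 0.36 for the other 4. In these 3 mutants the values for miR-28 stayed within 1 SE of 0.

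R821A, which changes the same arginine as R821E, had a lower mean ratio than WT in 3 of the 5 hairpins. Of the 64 other hairpins, 30 had a higher mean ratio in R821A than in WT, and the median shift of the 64 was -0.02. The count of 3 is thus near the background, and nothing is read from it. The R821A shift against WT was -0.74 ± 0.410 (SE) for miR-361, -0.62 ± 0.327 for miR-28, -0.41 ± 0.387 for miR-455, 0.08 ± 0.240 for miR-423 and 0.47 ± 0.374 for miR-331. Over the 4 mutants other than R821E, 10 of the 20 shifts against WT changed sign when 1 library was left out, all of them 0.41 or smaller in size. For miR-455 the shifts were 0.09 in R821A, 0.16 in A5 and 0.11 in ΔPAZ helix without WT replicate 1, and -0.31 in E5 without WT replicate 2. For miR-28 they were 0.07 in E5, 0.10 in A5 and 0.14 in ΔPAZ helix without WT replicate 1. Without ΔPAZ helix replicate 1 the ΔPAZ helix shift was -0.26 for miR-361 and -0.0032 for miR-423, and without R821A replicate 2 the R821A shift of miR-423 was -0.06. Set against R821A instead of WT, the R821E ratio was higher by 2.09 for miR-331, 1.80 for miR-361, 1.75 for miR-455, 1.62 for miR-28 and 1.10 for miR-423. hsa-miR-361-3p had 59 and 62 counts in R821A, where no other library held more than 51. On the spike-in scale that is 4.07 and 6.45 counts per 1000 spike-in counts in R821A and 4.56 and 3.88 in WT, which overlap.

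Among E5, A5, ΔPAZ helix and R821A, whose libraries had no part in the choice, none of the 5 ratios passed the test. The moderated F test of limma over these 4 groups called 0 of 69 hairpins (0%), with 6 at an unadjusted p under 0.05. One of these was miR-361, with an adjusted p of 0.306 (limma). For miR-423 the adjusted p was 0.878, and for miR-331, miR-455 and miR-28 it was 0.906. Levels of single strands gave 0 calls in 374 entries (0%) by edgeR and 1 by DESeq2, with 40 at an unadjusted p under 0.05. Among the 10 strands hsa-miR-361-3p (edgeR, adjusted p = 0.192) and hsa-miR-28-5p (edgeR, adjusted p = 0.365) were below 0.05 before adjustment. On the spike-in scale the adjusted p of hsa-miR-361-3p was 0.0658.

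The direct comparison of E5 with A5 called 0 of 69 ratios (0%, limma, with 0 at an unadjusted p under 0.05). It called 0 of 374 levels (0%) by edgeR and 0 by DESeq2, with 36 by edgeR at an unadjusted p under 0.05. The difference in ratio, E5 minus A5, was 0.53 for miR-455 (95% interval -0.31 to 1.38), 0.45 for miR-331 (-0.37 to 1.26), 0.40 for miR-423 (-0.12 to 0.93), -0.02 for miR-28 (-0.74 to 0.69) and -0.31 for miR-361 (-1.21 to 0.58). Of the strands, hsa-miR-28-5p was the one with an unadjusted p under 0.05. With TMM factors in the scaling it had 3167 and 3289 CPM in E5 and 1890 and 2595 CPM in A5 (log2 fold change 0.52 ± 0.162, edgeR, adjusted p = 0.445).

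Relatives of the 5 hairpins were few in these tables. miR-151a, which like miR-28 derives from a LINE-2 repeat, had a log2 5p/3p ratio of 0.95 ± 0.193 in R821E, 0.53 ± 0.307 in R821A, 0.91 ± 0.0846 for E5, 0.75 ± 0.0229 for A5, 0.62 ± 0.159 in ΔPAZ helix and 0.83 ± 0.285 in WT (SD, n = 2). Its shift in R821E against WT was 0.12 ± 0.189 (limma, adjusted p = 0.626), compared with 1.00 for miR-28. This difference between the 2 hairpins was not tested, because miR-28 was chosen for its shift. On the spike-in scale hsa-miR-151a-5p had a log2 fold change of -1.37 and hsa-miR-151a-3p of -1.48 in R821E against WT, and hsa-miR-151b had 22 to 70 counts and a log2 fold change of -1.04 ± 0.439. miR-708, which shares the family of miR-28, was not analysed here.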

How the data were processed

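AQ-seq counts of 12 HCT116 libraries, 2 for each rescue DICER, were analysed. The deposited values are raw counts per named strand, not normalised by the authors. The submitters' processing notes name cutadapt, BWA, bedtools and the builds hg38 and mm10, without versions or roles. How reads that match several entries were counted was not given in the sources used here. Each table lists 1346 miRNA and 30 spike-in entries, and spike-ins were kept out of library sizes. In R 4.3.3, levels were fitted with edgeR 4.0.16 (quasi-likelihood, TMM, filterByExpr, robust) on 374 entries, and log2((5p + 0.5)/(3p + 0.5)) with limma 3.58.1 (trend, robust) on the 69 hairpins whose arms both averaged 20 counts or more. Each fit took all 12 libraries, leaving 6 residual degrees of freedom. p-values were adjusted by Benjamini-Hochberg over all entries or hairpins with a threshold of 0.05. DESeq2 1.42.0 was an alternative. Both fits were tested on simulated data. Members, lists and the rule for named entries were chosen with earlier results of these data known. That rule names the 10 strands, the hairpins next to them in the order of shift, the 3 nearest profiles and relatives by family, seed or locus.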

Additional observations from a re-analysis of the deposited data

Results flagged for a closer look

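For miR-361 and miR-28, both libraries of some mutant lay above both WT libraries, and both R821A libraries lay below them. The share of all 69 hairpins with this pattern was not counted, so nothing is read from it. By group means miR-455 also had mutants on both sides of WT, but no mutant had both libraries below both WT libraries. The choice of the hairpins favoured R821E on the upper side, and both R821E libraries lay above both WT libraries in 35 of the 69 (50.7%). For miR-361 both R821E, both E5 and both A5 libraries had a higher log2 5p/3p ratio than both WT libraries, and both R821A libraries had a lower one. The group means differed by 1.80 between R821E and R821A, by 1.37 between E5 and R821A and by 1.68 between A5 and R821A. For miR-28 both R821E libraries lay above and both R821A libraries below both WT libraries, and the means differed by 1.62. These single differences were not tested: the R821E libraries served to choose the hairpins, and the F test over E5, A5, ΔPAZ helix and R821A gave an adjusted p of 0.306 for miR-361 (limma). miR-361 had 15 to 62 counts on its 3p arm.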

How the results depend on the processing

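In R821E against WT, 38 of 69 ratios and 179 of 374 levels were called in either direction. A mean of at least 100 counts on both arms left 15 hairpins, miR-423 alone of the members, and 11 calls. Leaving out 1 library gave 26 to 38 ratios and 129 to 190 levels. Among E5, A5, ΔPAZ helix and R821A, where no ratio or level was called, fitting those libraries alone gave 1 ratio and 3 levels, the spike-in scale 2 levels, no filter 4 and DESeq2 1, and leaving out 1 library gave 0 to 1 ratios and 0 to 3 levels. For E5 against A5, leaving out 1 library gave 0 ratios and 0 to 1 levels, the 1 without E5 replicate 1. The cause of these changes was not tested. None of the 602 tests of members over these alternatives passed. Adjusted p-values ranged from 0.117 to 0.945 for the miR-361 ratio and from 0.0658 to 0.610 for hsa-miR-361-3p among the 4 groups.

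With the replicate number as a block, 38 ratios and 171 levels were called in R821E against WT, and 0 in both other comparisons. Deviations of same-numbered libraries correlated between -0.46 and 0.32 over 15 pairs of groups, 1 of them over 0.1. The labels do not state whether same-numbered libraries were prepared together, and these correlations cannot decide it.

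Leaving out 1 library moved the R821E shift between 2.28 and 2.83 for miR-331 and between 0.83 and 1.84 for miR-455, and the choice of the hairpins fixes its sign. With 15 to 62 counts on the 3p arm of miR-361 and 16 to 82 on that of miR-455, counting error limits these ratios.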
